A study of Mus musculus with 2 samples.

Results

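The genes described here are 38 members of the cell cycle machinery, found by gene symbol among the 22587 symbols listed for both libraries, and all 38 were present. They comprise 15 genes of S phase (Pclaf, Pcna, Mcm2 to Mcm7, Rrm1, Rrm2, Tyms, Gins2, Cdc6, Ung and Slbp), 18 genes of G2 and mitosis (Mki67, Top2a, Cdk1, Ccnb1, Ccnb2, Ccna2, Birc5, Ube2c, Cenpf, Cenpa, Tpx2, Nusap1, Cdc20, Aurka, Aurkb, Bub1, Plk1 and Hmgb2), 4 cyclins and kinases of G1 (Ccnd1, Ccnd2, Cdk2 and Cdk4) and Tubb5, a beta-tubulin. They were read in single hippocampal cells of adult mice carrying Nestin-CreERT2 and ROSA26YFP, in which tamoxifen given at 8 weeks of age marks cells that express Nestin, mainly neural stem cells (NSCs), and their progeny with YFP. Cells positive for YFP and negative for propidium iodide were sorted 4 weeks post-TAM, at 12 weeks of age, from the control (labelled WT, here CT) and from Opa1 cKO mice, in which the same Cre removes floxed alleles of Opa1, a mitochondrial fusion protein. Cells of 3 mice were pooled for each genotype and made into 1 library with the 10x Genomics 3′ assay, so 2 libraries were compared. Both carry the strain label Opa1-Flox;Nestin-CreERT2;ROSA26YFP, while the protocol describes the control as free of the Opa1-Flox allele.

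A dividing cell copies its DNA in S phase and separates the copies in mitosis. The MCM helicase opens DNA at replication origins, PCNA clamps the polymerase to it, and ribonucleotide reductase (RRM1 and RRM2) and thymidylate synthase (TYMS) make the nucleotides. From G2 onward, CDK1 with cyclins A2, B1 and B2 drives entry into mitosis, the Aurora and Polo-like kinases build the spindle, and CDC20 and UBE2C start the destruction of the cyclins. In the adult dentate gyrus most NSCs rest, and most divisions are those of the intermediate progenitors that they produce. S-phase genes are classically switched on by E2F factors, and mitotic genes by complexes at the CHR element and at CCAAT boxes.

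These elements were looked for in the members' promoters, taken from RefSeq on GRCm38.p6 as the 250 bases before and the first 50 bases after the annotated start. Promoters were found for 31 of the 38 members, 32 in all since Mcm7 has 2. The E2F search used the words TTTCGCGC, TTTGGCGC, TTTCCCGC and TTTGCCGC on both strands, the CHR search TTTGAA and TTTAAA on both strands, and the CCAAT search CCAAT on both strands. An E2F word stood in 6 of 14 S-phase promoters (42.9%), in 1 of 15 G2/M promoters (6.67%, Cdk1) and in 2.26% of all 32851 promoters. A CHR word stood in 13 of 15 G2/M promoters (86.7%), in 28.6% of the S-phase promoters and in 27.6% of all. CHR and CCAAT words occurred together in 80.0% of the G2/M promoters against 28.6% of the S-phase promoters and 10.7% of all. A CCAAT word, with or without a CHR word, stood in 86.7% of the G2/M promoters, 78.6% of the S-phase promoters and 37.4% of all. The CHR word was thus more frequent in the mitotic set, while CCAAT was frequent in both sets. The choice of members did not use these words, and a match describes letters only, not a bound site. The G2/M promoters below are shown because, of the members described later, Top2a and Mki67 stayed lower in Opa1 cKO when deep cells were left out, while Cdk1 was near CT in all cells and higher without the deep cells. Leaving these out took more G2/M cells from CT than from Opa1 cKO, so the directions describe the cells that remained. Capitals mark CHR and CCAAT words on either strand, and each sequence runs 5′ to 3′ on the gene's strand. The Top2a promoter lies at chr11:99024140-99024439, that of Mki67 at chr7:135716330-135716629 and that of Cdk1 at chr10:69352863-69353162, all on the minus strand.
Top2a: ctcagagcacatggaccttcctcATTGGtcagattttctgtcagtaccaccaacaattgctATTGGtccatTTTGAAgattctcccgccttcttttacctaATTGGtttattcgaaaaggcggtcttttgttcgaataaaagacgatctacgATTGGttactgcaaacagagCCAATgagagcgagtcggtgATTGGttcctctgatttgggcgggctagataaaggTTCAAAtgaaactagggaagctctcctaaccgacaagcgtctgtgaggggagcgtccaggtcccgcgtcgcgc
Mki67: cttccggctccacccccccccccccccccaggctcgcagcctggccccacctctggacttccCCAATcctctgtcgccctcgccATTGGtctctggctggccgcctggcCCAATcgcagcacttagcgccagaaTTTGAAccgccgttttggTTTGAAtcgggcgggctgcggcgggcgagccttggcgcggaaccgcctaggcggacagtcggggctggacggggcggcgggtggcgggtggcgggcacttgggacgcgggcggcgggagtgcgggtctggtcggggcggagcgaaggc
Cdk1: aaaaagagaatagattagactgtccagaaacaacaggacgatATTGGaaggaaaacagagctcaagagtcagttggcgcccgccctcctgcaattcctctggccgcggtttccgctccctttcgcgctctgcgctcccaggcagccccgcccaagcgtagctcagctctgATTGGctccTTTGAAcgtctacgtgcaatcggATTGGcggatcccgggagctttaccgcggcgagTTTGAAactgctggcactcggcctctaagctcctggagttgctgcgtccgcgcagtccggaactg

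Of the S-phase promoters, those of Mcm5 and Mcm6 are shown, helicase subunits of which the first was lower in Opa1 cKO cells and the second was not. Mcm5 (chr8:75109259-75109558, plus strand) holds 2 overlapping E2F words and Mcm6 (chr1:128359656-128359955, minus strand) 3, of which 2 overlap. Here the capitals mark E2F words on either strand.
Mcm5: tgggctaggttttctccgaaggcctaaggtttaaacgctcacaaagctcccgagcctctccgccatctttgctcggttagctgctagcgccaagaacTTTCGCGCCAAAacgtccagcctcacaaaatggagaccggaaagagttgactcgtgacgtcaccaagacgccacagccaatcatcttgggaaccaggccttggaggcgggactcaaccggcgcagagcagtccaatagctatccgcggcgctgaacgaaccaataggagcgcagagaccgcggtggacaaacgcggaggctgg
Mcm6: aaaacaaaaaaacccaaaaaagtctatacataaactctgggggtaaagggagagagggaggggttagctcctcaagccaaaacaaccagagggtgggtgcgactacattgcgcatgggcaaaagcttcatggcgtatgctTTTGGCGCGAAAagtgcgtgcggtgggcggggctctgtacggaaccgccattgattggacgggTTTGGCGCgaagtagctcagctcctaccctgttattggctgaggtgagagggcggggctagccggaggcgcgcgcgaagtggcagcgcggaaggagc

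The files listed 4634 CT barcodes with 10799936 UMIs (unique molecular identifiers, each standing for 1 captured mRNA molecule) and 6475 Opa1 cKO barcodes with 18662032 UMIs. Of these, 1790 and 3764 cells had more than 600 and fewer than 7500 genes, under 20% mitochondrial UMIs and at least 1 YFP UMI, with median depths of 2555 and 3008 UMIs. The libraries shared 36 barcode sequences, and 9 passed the filters in both. Cells were clustered without the members, further cycle genes, mitochondrial genes and genes of the integrated stress response (ISR), and the 9 clusters took names from marker genes. The 3 lineage classes were NSC pool-like (1352 CT and 2699 Opa1 cKO cells), activated NSC-like (36 and 290) and progenitor and neuron-like cells (139 and 172), a class led by Igfbpl1, Sox11, Tubb3, Neurod1 and Calb2. The marker lists held none for astrocytes, so astrocytes and NSCs were not told apart within the NSC pool-like class. Opa1 gave 69 UMIs in NSC pool-like cells of CT and 66 in those of Opa1 cKO, or 18.6 and 7.41 UMIs per 1000000 UMIs of the class (CPM), a log2 ratio of -1.33 with an interval of -1.84 to -0.82. It gave 9 and 3 UMIs in progenitor and neuron-like cells. Which exons the deletion removes is not given in the sources used here, and 3′ reads count the transcript's end, so this is a limited check of the label. With 1 library per genotype there is no test between genotypes: the 95% intervals given here, exact binomial for shares, exact Poisson for CPM and from the binomial split of the counts for ratios, cover counting error only. Fewer expressing cells and less RNA per cell cannot be told apart in summed values.

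Cells that express the cycle program were concentrated in the progenitor and neuron-like class, and there they made up about a like share in both genotypes. Each cell was thinned at random to 1500 UMIs, for which 3 cells of CT and 7 of Opa1 cKO were too shallow, and a cell was counted when it had a UMI of 3 or more of the 33 S or G2/M members. In CT 48 of 136 cells were counted, or 35.3% (27.3 to 43.9), and in Opa1 cKO 55 of 165, or 33.3% (26.2 to 41.1). The intervals overlapped almost entirely, and the cells had median depths of 2848 and 3223 UMIs before thinning. In oligodendrocyte-like cells, a postmitotic type that should lack the program, 2 of 74 CT cells (2.70%) and 0 of 101 Opa1 cKO cells (which allows up to 2.97%) were counted at median depths of 3768 and 3914 UMIs. Ependymal-like, mural-like and endothelial-like cells gave 1.85 to 4.44% in either library. Read without thinning, the class held 59 of 139 (42.4%) and 84 of 172 (48.8%) counted cells. Thinned to 1000 UMIs the shares were 33.3% in CT and 25.3% in Opa1 cKO, and thinned to 2500 UMIs, which keeps only the deeper cells, 55.7% and 43.7%. Without the 5% of cells with most UMIs in each library they were 28.9% and 35.3%, and without cells over 5000 UMIs 29.8% and 33.6%, so Opa1 cKO had the higher share without thinning or without the deep cells.

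**Figure D1:**
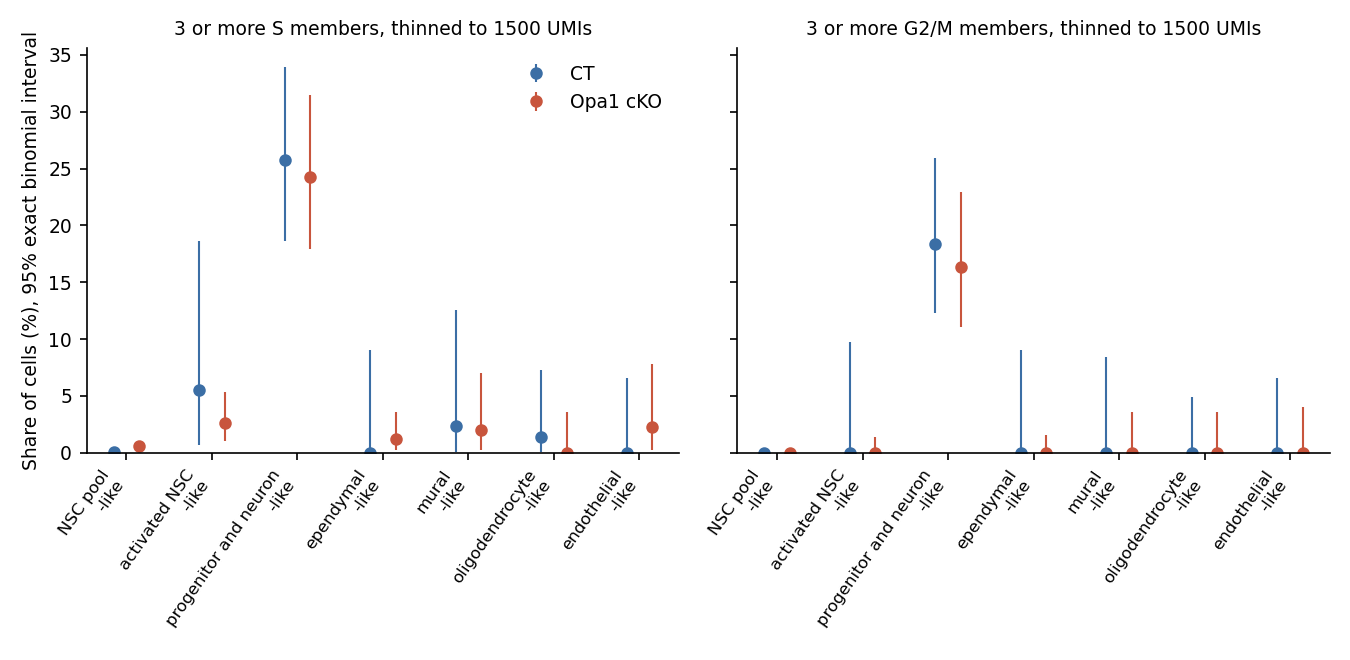
Share of cells (%) with a UMI of 3 or more S-phase members and of 3 or more G2/M members after thinning to 1500 UMIs, for each class in CT and Opa1 cKO, with 95% binomial intervals. The progenitor and neuron-like class has the highest shares in both panels (25.7 and 24.2% for S, 18.4 and 16.4% for G2/M), with overlapping intervals for the genotypes.

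Read by phase, similar shares of the class passed the limit of 3 in both libraries, while the phase medians of the counted cells differed. For the 15 S-phase members alone, 35 of 136 CT cells (25.7%, 18.6 to 33.9) and 40 of 165 Opa1 cKO cells (24.2%, 17.9 to 31.5) had 3 or more. For the 18 G2/M members alone, 25 (18.4%, 12.3 to 25.9) and 27 (16.4%, 11.1 to 22.9) did. In CT 19 cells reached 3 in both sets, 16 only for S and 6 only for G2/M, and in Opa1 cKO 20, 20 and 7. A counted cell held a median of 9 members in CT and 8 in Opa1 cKO, with highest values of 19 and 21. By phase the medians were 3 S-phase and 4 G2/M members in CT, against 5 and 2 in Opa1 cKO. Cells with 10 or more members, which lie far from the limit of 3, were 23 in CT (16.9%, 11.0 to 24.3) and 21 in Opa1 cKO (12.7%, 8.05 to 18.8). Near the limit, 12 CT cells held exactly 2 members and 10 exactly 3, against 30 and 11 in Opa1 cKO.

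Among cells with a YFP UMI, the counted progenitor and neuron-like cells were a smaller share of the 3 lineage classes in Opa1 cKO. They were 48 of 1430 lineage cells in CT (3.36%, 2.49 to 4.43) and 55 of 2910 in Opa1 cKO (1.89%, 1.43 to 2.45). For G2/M alone, 25 (1.75%, 1.13 to 2.57) and 27 (0.928%, 0.612 to 1.35) were counted. The class itself was 9.51% (8.04 to 11.2) of CT and 5.67% (4.86 to 6.57) of Opa1 cKO lineage cells, so the shares of dividing cells and of their class differed together. All cells had been sorted on YFP, and the gate can set such shares, which was not tested. The limit of 1 YFP UMI kept 1790 of 4186 CT and 3764 of 6121 Opa1 cKO cells that passed the other filters. Without that limit, 59 of 204 CT and 63 of 214 Opa1 cKO progenitor and neuron-like cells were counted. They stood beside 2800 and 3872 NSC pool-like cells, so the lineage shares of the genotypes lay nearer each other.

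While the number of counted cells was alike, the summed levels of many members were lower in Opa1 cKO progenitor and neuron-like cells. All 15 S-phase members had at least 20 UMIs over both libraries in the class and their median log2 ratio, Opa1 cKO over CT, was -0.26, against -0.02 over the 7157 genes with as many UMIs. Of them 4 were at least 2-fold lower and 1 at least 2-fold higher, where 8.52% of all genes were lower and 5.67% higher by that much. All 18 G2/M members had at least 20 UMIs and their median was -0.75, with 6 at least 2-fold lower, none higher, and 17 below 0. Summed over the set, G2/M members made 4616 CPM in CT against 2631 CPM in Opa1 cKO (log2 ratio -0.81, -0.91 to -0.72), and S-phase members 2656 and 1860 CPM (-0.51, -0.63 to -0.40). Deep cells held a large part of the CT sums, as given below.

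**Figure D2:**
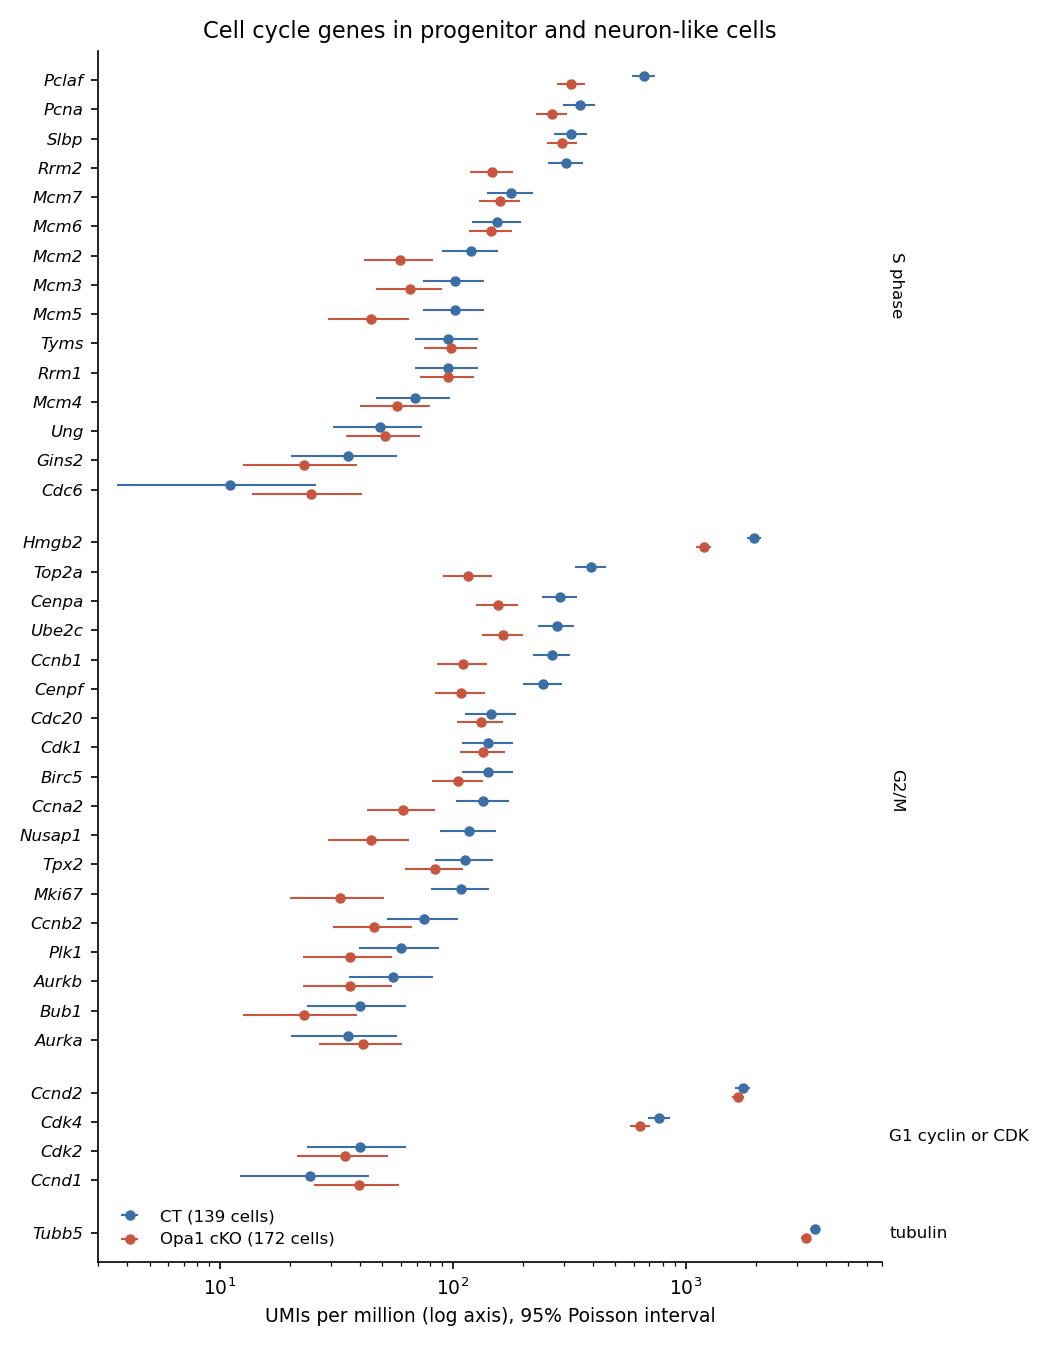
Level of each of the 38 members in progenitor and neuron-like cells in CPM on a log axis, with 95% Poisson intervals, for CT (139 cells) and Opa1 cKO (172 cells). Top2a lies at 391 CPM in CT against 117 CPM in Opa1 cKO, while Ccnd2, Tubb5, Mcm6 and Cdk1 nearly coincide.

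Among the S-phase genes, the levels of the helicase subunits differed from one another. Mcm5 stood at 102 CPM in CT against 44.5 CPM in Opa1 cKO (46 and 27 UMIs), a log2 ratio of -1.20 (-1.94 to -0.48), and Mcm2 at 120 and 59.3 CPM, a ratio of -1.02 (-1.67 to -0.38). Mcm3 had a ratio of -0.63 and Mcm4 of -0.26, with intervals that reached past 0. Mcm6, at 156 and 147 CPM (-0.09, -0.55 to 0.39), and Mcm7, at 178 and 160 CPM (-0.15, -0.60 to 0.29), were at nearly the same level in both libraries. The complex contains these subunits in equal numbers, and their mRNAs gave ratios spread from -1.20 to -0.09. Gins2, a subunit of the GINS complex that works with the helicase, gave 16 and 14 UMIs (-0.62, -1.77 to 0.50), and Cdc6, which loads the helicase, only 5 and 15 UMIs (1.15, -0.38 to 2.97).

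The nucleotide genes separated as well. Rrm2, the subunit of ribonucleotide reductase made in S phase, stood at 307 CPM in CT against 148 CPM in Opa1 cKO (-1.05, -1.45 to -0.66), while its partner Rrm1 stood at 95.6 and 95.5 CPM (0.00, -0.59 to 0.60). Tyms stood at 95.6 and 98.8 CPM (0.05, -0.54 to 0.65). Of the PCNA group, Pclaf, a PCNA-binding protein, stood at 662 and 323 CPM (-1.04, -1.30 to -0.77), and Pcna itself at 351 and 267 CPM (-0.40, -0.72 to -0.07). Ung, a uracil DNA glycosylase of the replication fork, had a ratio of 0.06, and Slbp, which binds the stem-loop of histone mRNAs, of -0.13 (-0.45 to 0.20). With all cells of the class included, the differences within the S-phase set were thus those of Pclaf, Rrm2, Mcm2, Mcm5 and, less so, Pcna. Of these only Mcm5 kept an interval below 0 in both settings without deep cells, which are described below.

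Among the mitotic genes, Top2a, the topoisomerase that disentangles sister chromatids, had the lowest ratio. It gave 176 UMIs in 29 of 139 CT cells and 71 UMIs in 19 of 172 Opa1 cKO cells, or 391 and 117 CPM, a ratio of -1.74 (-2.16 to -1.34). Mki67, the source of the Ki67 antigen that coats mitotic chromosomes, gave 49 UMIs in 17 cells and 20 UMIs in 13 cells, or 109 and 32.9 CPM (-1.73, -2.55 to -0.95). Nusap1, a spindle protein, stood at 118 and 44.5 CPM (-1.41), and Cenpf, a kinetochore protein, at 244 and 109 CPM (-1.17, -1.63 to -0.72). All 4 were at least 2-fold lower in Opa1 cKO.

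The cyclins that partner CDK1 were lower while the kinase was not. Ccnb1 stood at 267 CPM in CT against 110 CPM in Opa1 cKO (-1.27, -1.73 to -0.83), Ccna2 at 136 and 60.9 CPM (-1.15, -1.78 to -0.54), and Ccnb2 at 75.6 and 46.1 CPM (-0.71, -1.49 to 0.05). Cdk1 stood at 142 and 135 CPM (-0.07, -0.56 to 0.42). Of the genes that act in cyclin destruction, Ube2c stood at 280 and 165 CPM (-0.77, -1.16 to -0.38) and Cdc20 at 147 and 132 CPM (-0.15, -0.64 to 0.34). The lower values of the cyclins therefore had no match in Cdk1 or Cdc20.

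Of the spindle and centromere genes, Cenpa, the histone variant of centromeres, stood at 289 and 156 CPM (-0.88, -1.28 to -0.49), and Hmgb2, a chromatin protein of dividing cells, at 1971 and 1196 CPM (-0.72, -0.87 to -0.58). Birc5 (survivin) had a ratio of -0.43, Tpx2, a spindle assembly factor, of -0.43, Plk1 of -0.73, Aurkb of -0.62 and Bub1, a checkpoint kinase, of -0.79, all with intervals past 0. Aurka, with 16 and 25 UMIs, was the only G2/M member above 0 (0.21, -0.75 to 1.21).

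The G1 genes and Tubb5, which are not confined to cycling cells, were near the level of CT. Ccnd2, the cyclin D of this lineage, stood at 1756 CPM in CT against 1682 CPM in Opa1 cKO (-0.06, -0.20 to 0.07), Cdk4 at 769 and 637 CPM (-0.27, -0.48 to -0.06), and Tubb5 at 3592 and 3275 CPM (-0.13, -0.23 to -0.04). Cdk2 gave 18 and 21 UMIs (-0.21) and Ccnd1 11 and 24 UMIs (0.69, -0.39 to 1.87).

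Much of the member UMIs of CT lay in a small number of deep cells. In CT, 15 of the 139 cells lay among the 5% of the library's cells with most UMIs (over 5110 UMIs). Of these 14 were counted cells, 13 of them with 3 or more G2/M members, and together they held 21.2% of the class's UMIs, 46.1% of its S-phase and 60.8% of its G2/M UMIs. In Opa1 cKO, where the same 5% begins at 6526 UMIs, 9 of 172 cells belonged to it, 3 of them counted, and they held 13.7% of all, 9.83% of the S-phase and 15.5% of the G2/M UMIs. At a common limit of 5000 UMIs the same 15 CT cells stood against 22 Opa1 cKO cells, 11 of them counted, with 34.9% of the S-phase and 38.3% of the G2/M UMIs. In these cells G2/M members made 13258 CPM in CT against 3887 CPM in Opa1 cKO. Droplets that held 2 cells were not separable, since the doublet caller marked only 0.216% and 0.139% of the barcodes, and their part in the deep cells was not tested.

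**Figure D3:**
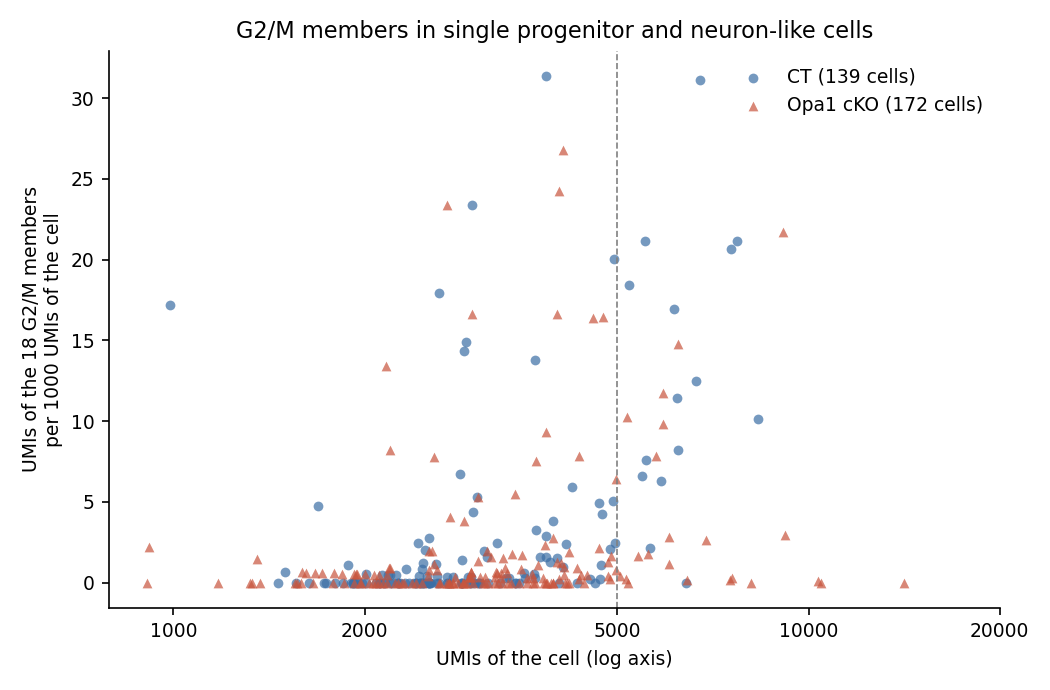
UMIs of the 18 G2/M members per 1000 UMIs of the cell, against the UMIs of the cell on a log axis, for single progenitor and neuron-like cells of CT and Opa1 cKO. The highest values lie on both sides of the dashed line at 5000 UMIs in each library, and of the 15 CT cells beyond it 13 have 3 or more G2/M members.

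Leaving out the deep cells also removed cells with 3 or more G2/M members, and unequally. In CT 13 of these 25 cells went under either cut. In Opa1 cKO 9 of 27 went at 5000 UMIs and 3 of 27 under the 5% rule. Among the cells that remained, the members did not move as a set. Leaving out cells over 5000 UMIs in either library brought the G2/M median to -0.043 (16 genes with at least 20 UMIs, 2 at least 2-fold lower and 2 higher, beside 7.83% and 4.57% of all genes) and the S-phase median to -0.070 (13 genes). Leaving out the 5% of cells with most UMIs in each library turned both medians positive, to 0.22 for G2/M (17 genes, 5 at least 2-fold higher and none lower, beside 5.21% and 7.8% of all genes) and to 0.040 for S phase. When every cell was given equal weight the S-phase median was 0.013 and the G2/M median -0.44. The signs of the S-phase and G2/M medians therefore differed between these settings, and they are given here as a description of these 2 libraries.

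Single members kept or changed their direction, among cells that had lost more of the G2/M cells of CT than of Opa1 cKO. Top2a remained lower without cells over 5000 UMIs (192 CPM in CT against 84.5 CPM in Opa1 cKO, -1.18, -1.79 to -0.59) and without the top 5% (-0.72, -1.24 to -0.20). Mki67 remained lower as well, at -1.08 (-2.11 to -0.10) and -0.96 (-1.90 to -0.04), and so did Mcm5, at -1.54 (-2.56 to -0.59) and -1.04 (-1.88 to -0.22). Cdk1 was higher in Opa1 cKO in both settings, at 0.98 (0.11 to 1.91) and 1.70 (0.92 to 2.58), Cdc20 at 1.40 (0.60 to 2.28) and 1.39 (0.61 to 2.26), and Aurka at 1.58 and 1.64. Ccnb1 moved from -1.27 to -0.22 and -0.02, Hmgb2 from -0.72 to -0.14 and 0.07, Pclaf from -1.04 to -0.61 and -0.04, and Rrm2 from -1.05 to -0.34 and -0.10. Top2a, Mki67 and Mcm5 were thus the members whose interval stayed below 0 in both settings.

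**Figure D4:**
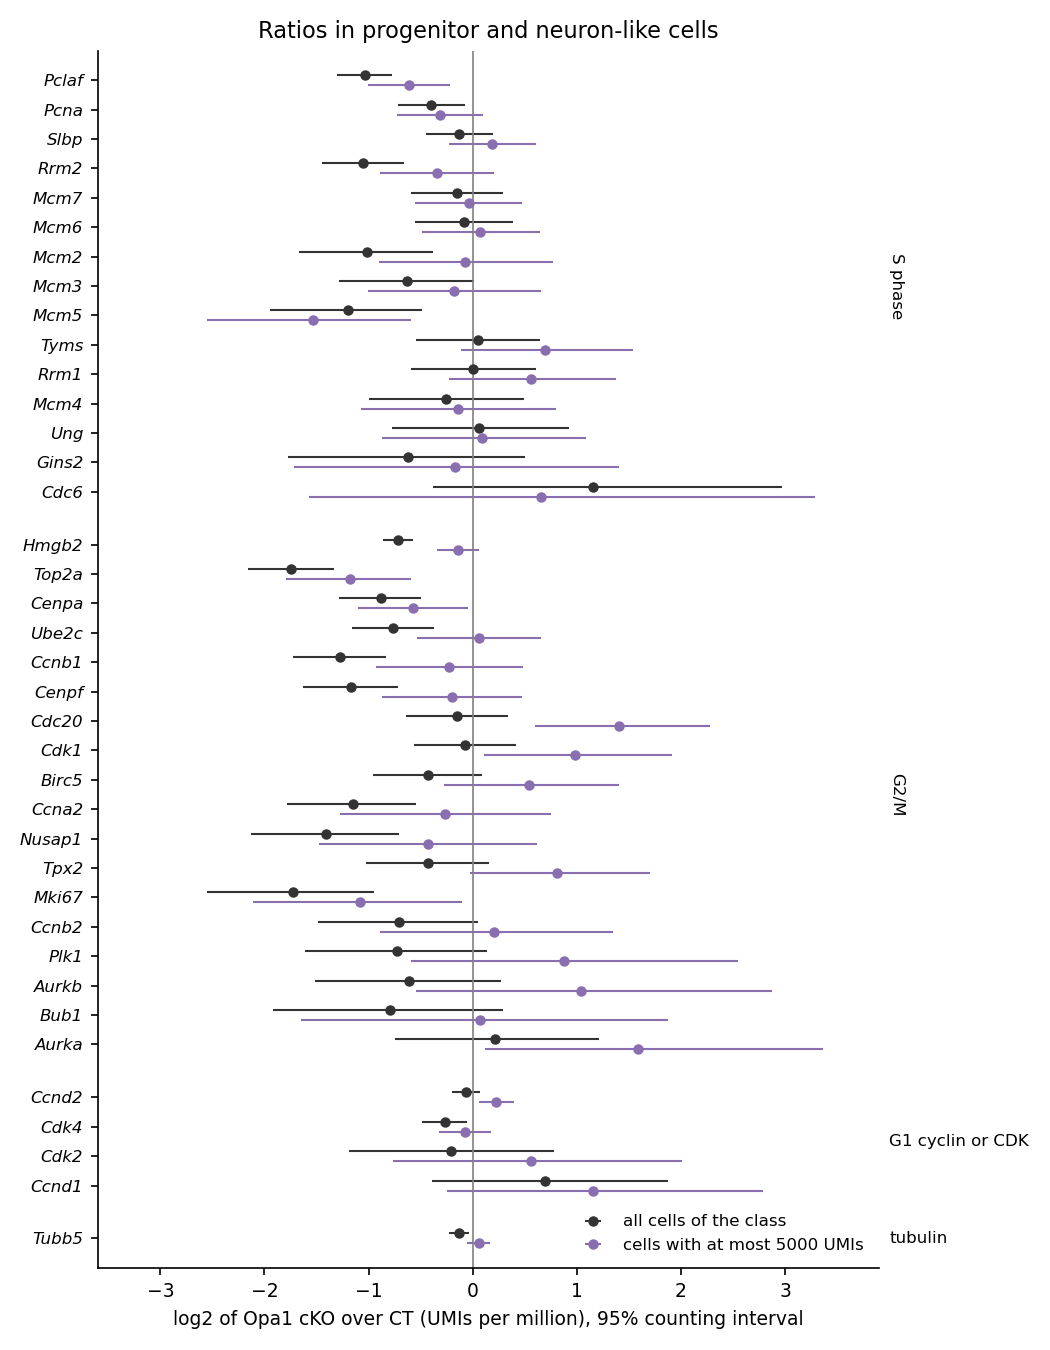
Log2 ratio of Opa1 cKO over CT for the members in progenitor and neuron-like cells, with 95% counting intervals, in all cells and with deep cells left out. Top2a, Mki67 and Mcm5 stay left of 0, while Cdk1, Cdc20 and Aurka lie right of 0 once deep cells are left out.

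The counted cells were chosen by the members, so the number of them with a UMI of each member is a description. Thinned to 1500 UMIs, 19 of 48 CT cells (39.6%, 25.8 to 54.7) and 12 of 55 Opa1 cKO cells (21.8%, 11.8 to 35.01) had a Top2a UMI, and 10 (20.8%, 10.5 to 34.99) and 5 (9.09%, 3.02 to 19.95) a Mki67 UMI, with overlapping intervals. For Cdk1 they were 11 (22.9%) and 16 (29.1%), for Ccnb1 17 (35.4%) and 15 (27.3%), for Slbp 18 (37.5%) and 31 (56.4%), and for Hmgb2 43 (89.6%) and 45 (81.8%). Pclaf was seen in 26 (54.2%) and 27 (49.1%). In the cells of the class that were not counted, Top2a gave 0 UMIs in 88 CT cells and 1 UMI in 110 Opa1 cKO cells, and Cdk1 and Ccnb1 gave 0 in both.

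Fewer of the counted cells than of the other cells held UMIs of the immature neuron genes Calb2 and Neurod1, which did not choose them. Calb2, a marker of immature granule neurons, had a UMI after thinning in 0 of 48 counted CT cells (which allows up to 6.25%) and in 53 of 88 others (60.2%), and in Opa1 cKO in 3 of 55 (5.45%) and 52 of 110 (47.3%). Neurod1 was seen in 10 (20.8%) of the counted and 65 (73.9%) of the other CT cells, and in 9 (16.4%) and 60 (54.5%) in Opa1 cKO. Eomes (Tbr2), a factor of intermediate progenitors, was seen in 8 (16.7%) and 17 (19.3%) in CT and in 16 (29.1%) and 21 (19.1%) in Opa1 cKO. Counted cells were deeper, with medians of 3939 UMIs against 2515 in CT and 3846 against 2994 in Opa1 cKO. Pdgfra, a defining gene of oligodendrocyte precursors, gave 0 UMIs in these cells in either library, and C1qa of microglia gave 0 UMIs in the counted cells. Other markers of these types were seen in the class. The 9 markers of oligodendrocyte precursors gave 33 UMIs in CT and 43 in Opa1 cKO (73.3 and 70.8 CPM). The 7 microglia markers gave 5 and 18 UMIs. The summed progenitor and neuron markers stood at 19901 CPM in CT against 15374 CPM in Opa1 cKO in this class, and the NSC pool markers at 5414 and 8381 CPM, and the part of this mixture in the member levels was not tested.

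Mitochondrial transcripts were lower in Opa1 cKO in dividing and other cells alike, while the stress genes stood further apart in the others. The 13 mitochondrial mRNAs made 4.42% of UMIs in counted CT cells and 1.49% in counted Opa1 cKO cells, beside 4.19% and 1.52% in the other cells of the class. In Opa1 cKO 27 of the 55 counted cells (49.1%) and 52 of the 110 others (47.3%) had under 1% mitochondrial mRNA UMIs. The 6 ISR genes summed to 579 CPM (480 to 692) in counted CT and 1094 CPM (959 to 1243) in counted Opa1 cKO cells, and to 310 and 1322 CPM in the others. In counted cells most of the difference was that of Slc3a2, an amino acid transporter subunit (50 and 136 UMIs). Ddit4 was higher in Opa1 cKO as well, at 62.7 CPM (33.4 to 107) in CT and 162 CPM (113 to 225). Slc7a11 stood at 24.1 and 60.0 CPM with overlapping intervals. Atf4 stood at 169 and 166 CPM, Ddit3 at 53.1 and 46.2 CPM and Chac1 at 28.9 and 32.3 CPM. Within Opa1 cKO, Ddit3 (CHOP), a stress factor, had 46.2 CPM (22.1 to 84.9) in counted and 188 CPM (147 to 237) in other cells, and Slc7a11, a cystine transporter, at 60.0 (32.0 to 103) and 154 CPM (118 to 199). The NSC pool marker Aldoc stood at 333 CPM in counted and 461 CPM in other CT cells, and at 379 and 911 CPM in Opa1 cKO. Sox2, also an NSC pool marker, stood at 405 and 197 CPM in CT and at 346 and 167 CPM in Opa1 cKO. The part of such mixture in the ISR values was not tested. Opa1 gave 2 UMIs in counted CT and 0 UMIs in counted Opa1 cKO cells.

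Within Opa1 cKO, the share of counted cells did not follow the mitochondrial mRNA share. Under 1% of UMIs, 27 of 79 progenitor and neuron-like cells were counted (34.2%, 23.9 to 45.7), and at 1% or more 28 of 86 (32.6%, 22.8 to 43.5). G2/M cells were 13 (16.5%) and 14 (16.3%), and cells with 10 or more members 10 (12.7%) and 11 (12.8%). CT had only 3 cells under 1%, so the split could not be read there. The summed levels were somewhat lower under 1%: the G2/M median was -0.64 over 17 genes, 6 at least 2-fold lower and 1 higher beside 2.9% and 3.33% of 5042 genes, and the S-phase median was -0.24. Mcm3 (-1.52, -2.71 to -0.45), Nusap1 (-1.45), Cenpf (-1.03, -1.85 to -0.26), Cdc20 (-0.91, -1.63 to -0.21), Ccnb1 (-0.87) and Hmgb2 (-0.41, -0.62 to -0.19) were lower under 1%, whereas Tyms (1.18, 0.36 to 2.04) and Aurkb (1.48, 0.05 to 3.12) were higher. Mcm6 (0.30), Pclaf (-0.05) and Ccnd2 (0.00) had intervals on both sides of 0. Some members differed among these cells, then, while the share of counted cells was alike. Cells of Opa1 cKO at 1% or more, set against CT cells at 1% or more, gave a G2/M median of -0.70 (5 of 18 at least 2-fold lower and none higher, beside 9.4% and 4.28% of 6033 genes) and an S-phase median of -0.23. These CT cells were 136 of the 139 of the class, so the CT side is nearly that of the main comparison. Deep cells were included in both comparisons by mitochondrial mRNA share.

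In NSC pool-like cells, among which astrocytes were not told apart, hardly any cell carried the program, while several members were higher in Opa1 cKO. There 8 of 1258 CT cells (0.636%, 0.275 to 1.25) and 32 of 2479 Opa1 cKO cells (1.29%, 0.885 to 1.82) had 3 or more members. Oligodendrocyte-like cells gave 2 of 74 in CT (2.70%, 0.329 to 9.42) and 0 of 101 in Opa1 cKO, which allows up to 2.97%. The NSC pool-like shares lay below these limits and are read as background, a reading that rests on few oligodendrocyte-like cells. In CT all 8 had exactly 3 members and in Opa1 cKO 29 of 32, and none reached 5. Hmgb2, Pcna and Slbp made up most of these counts, and without these 3 genes 0 of 1258 and 1 of 2479 cells remained. For the S-phase members alone, 1 of 1258 CT cells (0.0795%, 0.00201 to 0.442) and 15 of 2479 Opa1 cKO cells (0.605%, 0.339 to 0.996) had 3 or more. The share was higher in Opa1 cKO, with intervals that overlapped. No cell had 3 or more G2/M members, which allows shares up to 0.238% in CT and 0.121% in Opa1 cKO. Mki67 gave 1 UMI in 1352 CT and 1 UMI in 2699 Opa1 cKO cells, Top2a 1 and 2, Cdk1 1 and 2, and Bub1 0 and 0.

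**Figure D5:**
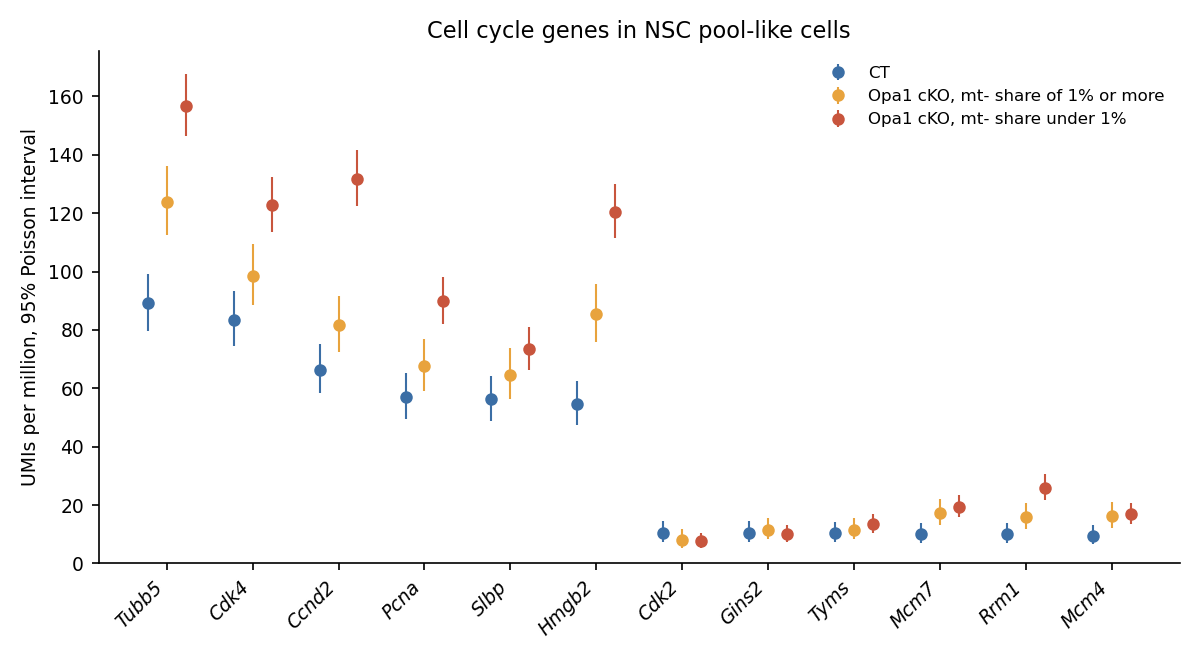
Level in CPM, with 95% Poisson intervals, of each member with 100 or more UMIs, among NSC pool-like cells of CT and of 2 groups of Opa1 cKO cells split by their mitochondrial mRNA share. Hmgb2 lies at 54.5 CPM in CT, at 85.3 CPM in Opa1 cKO cells with 1% or more mitochondrial mRNA and at 121 CPM in those under 1%.

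Hmgb2 stood at 54.5 CPM in NSC pool-like cells of CT against 107 CPM in those of Opa1 cKO (202 and 951 UMIs, log2 ratio 0.97, 0.75 to 1.20). Ccnd2 stood at 66.4 and 112 CPM (0.76, 0.55 to 0.96), Tubb5 at 89.1 and 144 CPM (0.69, 0.51 to 0.87), Pcna at 57.0 and 81.2 CPM (0.51, 0.29 to 0.74) and Cdk4 at 83.4 and 113 CPM (0.44, 0.26 to 0.63). Of the replication genes, Rrm1 had a ratio of 1.14 (0.63 to 1.69), Mcm7 of 0.89 (0.37 to 1.45), Mcm4 of 0.80 (0.26 to 1.38) and Mcm2 of 2.90 on 2 and 36 UMIs, while Rrm2 (-0.52) and Pclaf (-0.85) had intervals across 0. Of the 13 S-phase members with at least 20 UMIs, 4 were at least 2-fold higher and none lower, beside 4.49% and 3.75% of 11325 genes, and their median was 0.51 against 0.04 for all genes. Of these 4, only Rrm1 and Mcm2 had intervals above 0, and Mcm2 rests on 2 UMIs in CT. Summed over the set, S-phase members had a log2 ratio of 0.47 (0.35 to 0.60). Ependymal-like, mural-like, oligodendrocyte-like and endothelial-like cells gave 0.54, 0.44, 0.35 and 0.34, with intervals that included 0. A higher S-phase sum was thus not particular to NSC pool-like cells. The G2/M members without Hmgb2 summed to 10.8 CPM in CT against 12.1 CPM in Opa1 cKO (0.17, -0.37 to 0.73). In oligodendrocyte-like cells Hmgb2 had a ratio of -0.18 (9 and 12 UMIs) and Pcna of 0.08, while Slbp gave 3 and 20 UMIs and Ccnd2 1 and 14 UMIs, both higher in Opa1 cKO there too. Besides Hmgb2, 2 G2/M members had at least 20 UMIs, Tpx2 with 5 and 23 UMIs (0.94, -0.49 to 2.69) and Cenpa with 7 and 23 UMIs (0.45, -0.82 to 1.91), both above 0 with intervals that included it. The members with intervals above 0 in NSC pool-like cells were thus Hmgb2, Tubb5, Ccnd2, Cdk4, Slbp, Pcna, Rrm1, Mcm2, Mcm4 and Mcm7.

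The levels were also read within the clusters of the class and by the mitochondrial mRNA share. Cluster 1, led by the stress genes Nupr1, Hmox1, Gdf15 and Ddit3, held 26 CT and 1392 Opa1 cKO cells, cluster 0 735 and 765, and cluster 2 591 and 542. The first leading genes of cluster 0 were Slc7a10, Tmem176a, Rnase1 and Agt. Hmgb2 stood at 129 CPM (119 to 139) in the Opa1 cKO cells of cluster 1, at 58.9 CPM in CT against 67.4 CPM in Opa1 cKO in cluster 0, with overlapping intervals, and at 49.2 (39.1 to 61.1) and 96.0 CPM (82.3 to 111) in cluster 2. Ccnd2 stood at 130.0 CPM in cluster 1 of Opa1 cKO, at 71.1 and 76.0 CPM in cluster 0, and at 61.2 (49.9 to 74.3) and 108 CPM (93.6 to 124) in cluster 2. Tubb5 differed in cluster 0 as well, at 79.2 CPM (67.3 to 92.7) against 107 CPM (94.02 to 122), while Pcna, Cdk4 and Slbp had overlapping intervals there. The difference between clusters was not tested.

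Among Opa1 cKO NSC pool-like cells, those under 1% mitochondrial mRNA had 132 CPM of Ccnd2 against 81.6 CPM at 1% or more (0.69, 0.49 to 0.90), 121 against 85.3 CPM of Hmgb2 (0.50, 0.30 to 0.70), 89.9 against 67.5 CPM of Pcna (0.41, 0.19 to 0.64) and 157 against 124 CPM of Tubb5 (0.34, 0.17 to 0.51). Rrm1 had a ratio of 0.72 (0.26 to 1.19) and Rrm2 of 1.14 (0.25 to 2.11), beside a median of 0.16 over 10859 genes. Rrm2 was the 1 member at least 2-fold higher under 1% and none was 2-fold lower, where 2.63% of all genes were higher and 1.92% lower by that much. The ISR genes moved with this split, at 4921 CPM under 1% and 1948 CPM at 1% or more, and their part in the member levels was not tested. Opa1 cKO cells at 1% or more still stood above CT for Hmgb2 (0.64, 0.38 to 0.91), Tubb5 (0.47, 0.26 to 0.68), Mcm7 (0.78, 0.17 to 1.42) and Ccnd2 (0.30, 0.04 to 0.55), and Rrm2 was lower in them (-1.31, -2.32 to -0.39), the 1 member past 2-fold, beside 3.12% of 10644 genes lower and 1.75% higher. The share of counted cells was 25 of 1485 under 1% (1.68%) and 7 of 994 at 1% or more (0.704%). Both lay below the oligodendrocyte-like limits given above, which rest on few cells and cannot set a background level closely. Another random thinning gave 14 of 1485 (0.943%) for the cells under 1%.

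Activated NSC-like cells, with Frzb and Mycn among their leading genes, were counted in 3 of 36 CT cells (8.33%, 1.75 to 22.5) and 12 of 266 Opa1 cKO cells (4.51%, 2.35 to 7.75), and none had 3 or more G2/M members. S-phase members summed to 581 CPM (441 to 751) in CT and 433 CPM (390 to 480) in Opa1 cKO. Ccnd2 stood at 441 and 397 CPM (-0.15, -0.61 to 0.34), Hmgb2 at 180 and 151 CPM (-0.26, -0.98 to 0.54) and Pcna at 150 and 120 CPM (-0.32, -1.11 to 0.57). Pclaf gave 6 UMIs in 36 CT cells and 5 UMIs in 290 Opa1 cKO cells. Of the members with at least 20 UMIs, 2 were at least 2-fold lower (Mcm4 and Cdk2, both -1.01) and none higher, beside 8.64% and 13.4% of 6469 genes. All of them had intervals on both sides of 0, and with 36 CT cells only large differences would have been detectable.

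Further genes of the pathway were read in the same way. In progenitor and neuron-like cells, 9 of 28 further S-phase genes were at least 2-fold lower in Opa1 cKO and none higher (median -0.43), beside the 8.52% and 5.67% of all genes, with the lowest ratios for Dtl (-1.73), a ubiquitin ligase subunit of S phase, Ccne2 (-1.62, cyclin E2) and Casp8ap2 (-1.62), and the highest for Chaf1b (0.40), Ubr7 (0.38) and Dut (0.27). Of 46 further G2/M genes 12 were at least 2-fold lower and none higher (median -0.73), beside the same shares of all genes, with the lowest ratios for Ect2 (-2.72), which acts in cytokinesis, Cenpe (-1.85), a kinetochore motor, and Ctcf (-1.80), and the highest for Ckap2 (0.57), Tacc3 (0.49) and Bub3 (0.02). Of 11 genes of the E2F, RB and FOXM1 factors 4 were at least 2-fold lower and none higher, again beside 8.52% and 5.67%, with Rb1 at -1.75, Lin54 at -1.53 and Rbl1 at -1.24, and E2f4 (0.30), Tfdp2 (0.10) and E2f6 (0.07) were highest. These values were read with the deep cells included.

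The inhibitors of cyclin-dependent kinases differed by class. In NSC pool-like cells Cdkn1a (p21), a target of p53 and of stress pathways, gave 7 UMIs in CT against 777 in Opa1 cKO, or 1.89 and 87.2 CPM (5.53, 4.48 to 6.85). Cdkn1b (p27) stood at 88.8 and 63.1 CPM there (-0.49, -0.69 to -0.29), Cdkn2c (p18) had a ratio of 0.45 (0.18 to 0.72) and Cdkn2d (p19) of 0.23. In progenitor and neuron-like cells Cdkn1a stood at 82.2 CPM in CT against 87.3 CPM in Opa1 cKO (0.09, -0.55 to 0.73), Cdkn1b at 260.0 and 119 CPM (-1.13, -1.58 to -0.70), and Cdkn2c, Cdkn1c and Cdkn2d had ratios of 0.27, 0.07 and -0.03. Oligodendrocyte-like cells gave 0 and 20 UMIs of Cdkn1a and 23 and 8 UMIs of Cdkn1b, so both genes differed in the same direction there as in NSC pool-like cells.

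In NSC pool-like cells few genes of the wider lists passed 2-fold, where 4.49% of all genes were higher and 3.75% lower by that much and the median of all genes was 0.04. Of 23 further S-phase genes 1 was at least 2-fold higher and 1 lower (Dnmt1, -1.07), with a median of 0.32 and 18 above 0, and Cenpu (0.98), Pola1 (0.89), Gmnn (-0.23) and Atad2 (-0.11) were next. Of 26 further G2/M genes 2 were higher (Cks2, 1.54, and Tacc3, 1.03) and 2 lower (Ncapd2, -1.19, and G2e3, -1.12), with a median of 0.22, and Spc25 (0.98) and Anln (-0.80) were next. The 13 E2F, RB and FOXM1 genes had a median of -0.40 and none passed 2-fold, from Lin9 (-0.64), Mybl2 (-0.63) and Rbl1 (-0.57) to E2f5 (0.30), E2f4 (0.38) and E2f6 (0.40).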

How the data were processed

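The 2 libraries held sorted YFP+ hippocampal cells, 1 CT and 1 Opa1 cKO, each pooled from 3 mice. The deposited values are counts of UMIs per gene and barcode, made by the authors with Cell Ranger and without normalization. The submitters' processing notes name Cell Ranger 2.1.1 and mm10, while the matrix header names software 3.1.0. All columns were used.

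The members and gene lists were chosen with earlier results of these data known. Identifiers with the same symbol were added together, which gave 22587 symbols. Kept were cells between 600 and 7500 genes with under 20% mitochondrial UMIs and at least 1 YFP UMI: 1790 CT cells (5051491 UMIs) and 3764 Opa1 cKO cells (12483473 UMIs). SCTransform normalization and clustering were run in Seurat 5.3.0 (8 dimensions, resolution 0.2) without cycle, mitochondrial and ISR genes among the variable genes. Clusters were named after the cell type best represented in their 50 leading genes, where at least 3 of its markers, and 33.3% of them, passed a log2 fold of 1 against the lower quartile of the other clusters, with 10 CPM added. This reference was set after the clusters were seen, so the classes are rebuilt names. Doublets were not removed. Scrublet, run in scanpy 1.11.5, marked 10 CT and 9 Opa1 cKO barcodes, too few to be informative, and leaving these out was an alternative.

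UMIs were summed per library and class with python 3.11.15, numpy 2.4.6, scipy 1.17.1 and pandas 2.3.3. Figures were drawn with matplotlib 3.10.9. Genes with at least 20 UMIs over both libraries entered medians and 2-fold counts. For shares, cells were thinned to 1500 UMIs and shallower cells left out, and a count of 0 was read as allowing up to 3 counts. Members with at least 20 UMIs in progenitor and neuron-like cells, the 3 highest and 3 lowest of each further list and CDK inhibitors were named, and other genes were chosen after their values were seen. Values of some listed genes are not reported here. With 1 library per genotype no test was made. Intervals and thinning were tested on simulated data. For the intervals the counts were drawn independently, so that test could not show the effect of UMIs gathered in few cells. Alternatives concerned filters, clustering, thinning depth, the number of members, the denominator, the weight of cells and deep cells.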

Additional observations from a re-analysis of the deposited data

Results flagged for a closer look

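For 5 members the ratios had opposite signs, with intervals off 0, in NSC pool-like and in progenitor and neuron-like cells. The log2 ratio of Opa1 cKO over CT was 0.51 and -0.40 for Pcna, 2.90 and -1.02 for Mcm2, 0.97 and -0.72 for Hmgb2, 0.44 and -0.27 for Cdk4, and 0.69 and -0.13 for Tubb5. The difference between the classes was not tested. Without cells over 5000 UMIs the progenitor and neuron-like ratios were -0.31 for Pcna, -0.07 for Mcm2, -0.14 for Hmgb2, -0.07 for Cdk4 and 0.06 for Tubb5, each with an interval that included 0.

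Barcodes without a YFP UMI, which enter only the alternative without the YFP filter, also held cells with 3 or more members. In Opa1 cKO 35 of 1901 such barcodes (1.84%, 1.29 to 2.55) were counted and in CT 25 of 1887 (1.32%, 0.859 to 1.95), at median depths of 2525 and 2275 UMIs. With 3 or more G2/M members there were 5 barcodes in CT and 0 in Opa1 cKO, which allows up to 0.158%.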

How the results depend on the processing

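No paired analysis was possible because each genotype had 1 library, and for the same reason no replicate could be left out. In this order, the shares of cells with 3 or more members below are those of NSC pool-like cells (CT, all Opa1 cKO, Opa1 cKO under 1% and at 1% or more mitochondrial mRNA) and of progenitor and neuron-like cells (the same). Thinned to 1000 UMIs they were 0.148%, 0.412%, 0.561% and 0.188% in the first class and 25.3% in all Opa1 cKO cells of the second. Thinned to 2500 UMIs the first class gave 1.20% in CT, and its 3 Opa1 cKO shares were 4.73%, 5.82% and 3.17%. The second class gave 55.7% in CT and 43.7% in Opa1 cKO. Without thinning they were 1.92%, 9.23%, 11.5% and 5.76%, and in the 3 Opa1 cKO groups of the second class 48.8%, 47.0% and 50.6%. A limit of 2 members gave 4.29%, 9.76%, 11.0% and 7.95%, then 44.1%, 51.5%, 48.1% and 54.7%. A limit of 5 gave 0% in all 4 groups of the first class, then 27.2% and 23.6%. All 38 members gave 3.1%, 7.42%, 8.96% and 5.13%, then 67.6%, 78.2%, 72.2% and 83.7%. Another random seed gave 0.943% in Opa1 cKO NSC pool-like cells under 1%.

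Alternatives chosen after seeing the data were those without deep cells and without Hmgb2, Pcna and Slbp. Without these 3 genes the first class gave 0%, 0.0403%, 0.0673% and 0%. Without the 5% of cells with most UMIs its share was 0.248% (0.0512 to 0.724) in CT and 1.37% (0.936 to 1.92) in Opa1 cKO. With no YFP filter it was 0.536% (0.300 to 0.882) and 1.60% (1.23 to 2.05). The intervals of CT and Opa1 cKO did not overlap at these 2 settings, while those of the main setting did. Cells were thinned anew at each setting, however. Of the 8 CT cells counted in the main setting, only 1 was among the 5% left out. With Scrublet calls left out, CT gave 5 of 1258 cells against 8 of 1258. The part of random thinning in these shares was not separated. In progenitor and neuron-like cells the S-phase and G2/M medians turned to 0.040 and 0.22 without that 5%, and were -0.070 and -0.043 without cells over 5000 UMIs. With every cell weighted equally they were 0.013 and -0.44, and without the YFP filter the G2/M median was -0.60. Over all alternatives the S-phase median in NSC pool-like cells ranged from 0.45 to 0.62. Of the values of these 2 classes at alternative settings, 116 stayed within the counting interval of their main value. Another 49 moved outside it, and 3 medians changed sign. For the shares of activated NSC-like cells, 9 values moved and 21 did not. The CT share there was 0 of 42 with log-normalization and 2 of 11 with clustering on all genes. Without the YFP filter no activated NSC-like cluster formed. Genes with few UMIs have wide intervals, and 1 library per genotype leaves the spread between mice unknown.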

Other observations

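Outside the lineage, ependymal-like, mural-like and endothelial-like cells had S-phase members at 201 to 286 CPM in CT against 293 to 389 CPM in Opa1 cKO, with log2 ratios of 0.54, 0.44 and 0.34 whose intervals all included 0. Oligodendrocyte-like cells had them at 236 and 301 CPM (0.35, -0.085 to 0.79), beside 187 and 259 CPM in NSC pool-like cells (0.47, 0.35 to 0.60). In endothelial-like cells the 18 G2/M members summed to 142 CPM in CT against 222 CPM in Opa1 cKO (0.65, 0.05 to 1.27), and most of these UMIs were of Hmgb2, since without it the sums were 8.59 and 28.4 CPM from 2 and 11 UMIs. In ependymal-like cells the 13 mitochondrial mRNAs made 63204 CPM in CT against 11147 CPM in Opa1 cKO, while the G2/M members without Hmgb2 gave 5 and 40 UMIs, a log2 ratio of -0.12 (-1.46 to 1.58).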
